A study of Canis lupus familiaris with 42 samples.

Results

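The collagen chains are the genes whose symbol in the platform annotation is COL followed directly by a digit. This pattern found 36 of the 15115 genes that a probe set names alone, and all 36 encode collagen chains. Of these, 10 build fibrillar collagens, 7 build collagens of the basement membrane and 19 belong to other collagen families. Each gene is represented by the probe set with the highest mean over all arrays. COL6A2, COL11A1 and COL18A1, known chains of these families, were not analysed here.

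Sarcomas that arose spontaneously in dogs were sampled untreated and once more following a first session of hyperthermia, the warming of a tumour, as an addition to radiotherapy. Each of 21 tumours, here called tumour 1 to tumour 21, gave 1 array before and 1 after treatment. Nothing in the labels states the time of the second sample, or the breed, age, sarcoma type and radiation received by then, and no untreated tumour was sampled again. Values are log2 levels on an Affymetrix canine array, and a change is the level after minus the level before in the same tumour.

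Collagens are trimers of chains wound around each other, and they form the protein scaffold of connective tissue. Fibrillar collagens such as types I, III and V make rope-like fibrils, and type IV collagen makes the sheet of the basement membrane that underlies epithelia and surrounds vessels. Other families decorate fibrils, form beaded microfilaments, anchor the epidermis or span the cell membrane. In tumours most fibrillar collagen is made by fibroblasts and, in sarcomas, also by tumour cells of mesenchymal origin.

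Some features of the libraries bear on the results. Array medians over all probe sets but controls ran from 5.198 to 5.31. Precision is limited by how many tumours there are. By the level of poly-A spike-in controls the tumours fell into a spiked batch of 9 and an unspiked batch of 12, which no label names. The 3′ to 5′ contrast of actin and GAPDH, a sign of RNA quality, changed by a mean of 0.34 in spiked and -0.049 in unspiked tumours, and by more than 0.5 in 4 tumours. VIM, the filament protein of mesenchymal cells, lay between 13.2 and 14.2 before treatment, a high level in every tumour. Tumour 15 stood apart, because the mean level of 5 keratinocyte markers was 8.07 there before treatment, against a median of 3.82 over all tumours. KRT10, a keratin of the upper epidermis, was at 12.1 before and 12.6 after treatment in tumour 15, and between 3.14 and 6.59 before treatment in the other tumours. Both called genes and the class medians are given with and without tumour 15, and so is each member whose mean change it moved by over 1.5 times.

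Most collagen genes had a mean change slightly below 0, and few changes passed the test. Of the 36 genes 28 had a mean change below 0, or 77.8%, against 46.9% of all named genes. The median change was -0.049 for the collagen genes and 0.0069 for all named genes. By tumour the direction was mixed, since the median over the 36 genes was above 0 in tumours 5, 9, 11 and 13 to 20. Several chains moved together, so the members are not independent and these shares are no test. In a paired limma fit over 42924 probe sets with Benjamini-Hochberg adjustment, 2 collagen genes fell and 0 rose at an adjusted p under 0.05. These are COL21A1 and COL6A3, or 5.56% of the members, beside 3.13% of all named genes that were called lower and 4.02% that were called higher (7.15% in either direction). With 2 genes called, that share is not a result that sets collagens apart. At an unadjusted limma p under 0.05, 7 members were lower and 1 was higher, where 9.63% of all named genes were lower and 12.1% higher. The plot of changes by gene shows both called genes and the spread over tumours.

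**Figure D1:**
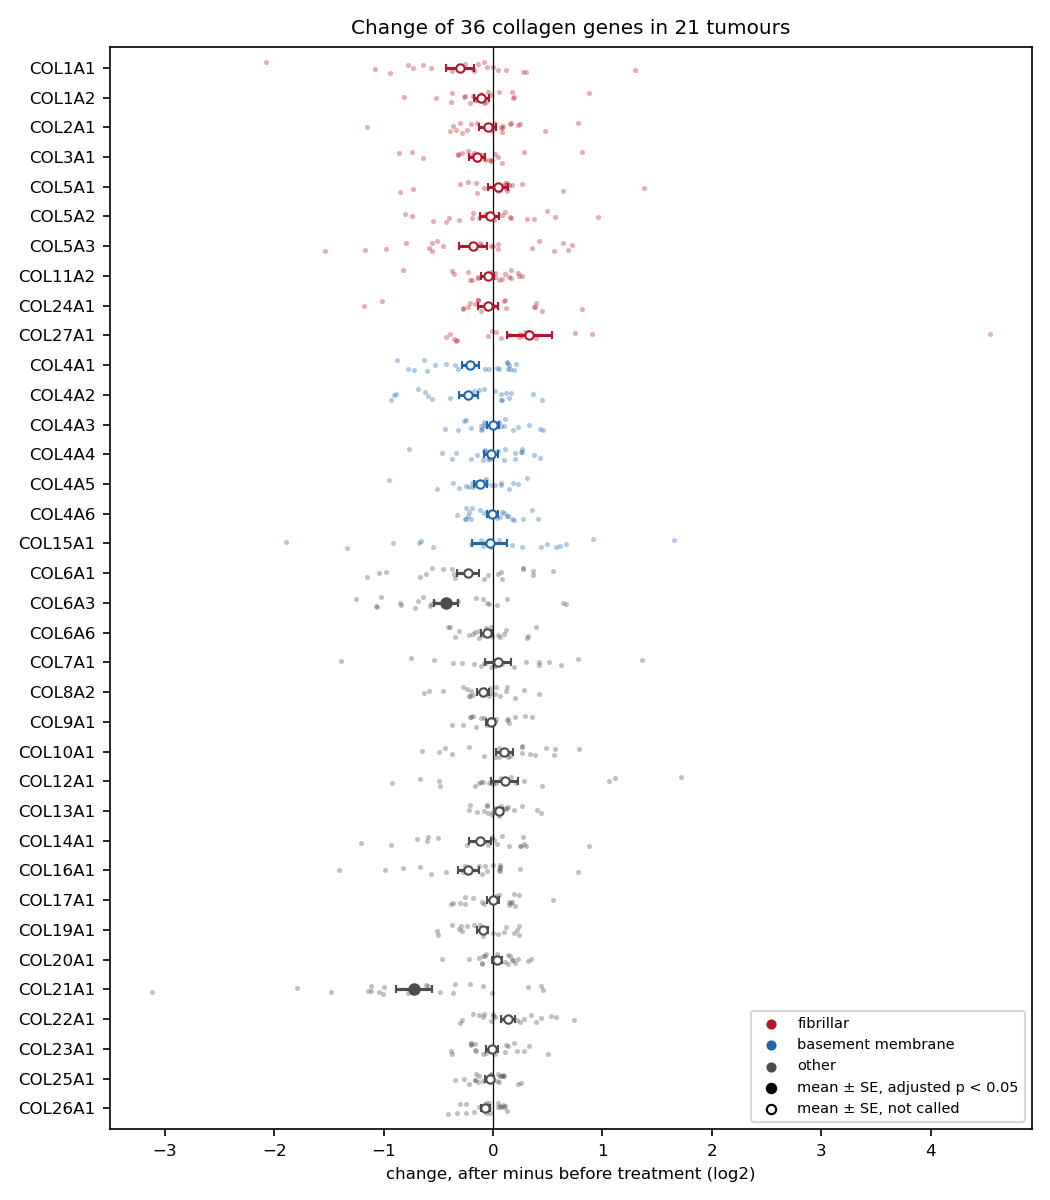
Change of each of the 36 collagen genes after treatment (x axis, log2, after minus before), with 1 small point per tumour and a larger circle for the mean ± SE over 21 tumours, filled where the limma adjusted p is under 0.05. COL6A3 and COL21A1 are the filled circles, both left of 0, and the far right point of COL27A1 is tumour 15.

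Among the fibrillar collagens the main chains of types I and III tended lower, but none passed over all probe sets. COL1A1, the main chain of type I collagen, ran from 11.9 to 14.3 (median 13.2) before and from 11.3 to 14.4 (median 12.6) after treatment. The groups overlapped across almost their whole range. COL1A1 changed by -0.30 ± 0.13 (SE, n = 21, limma adjusted p = 0.197, 95% interval -0.57 to -0.030), with 16 of 21 tumours lower. The extremes were tumour 2, with a change of -2.08, and tumour 15, with 1.297. Without tumour 15 the mean change was -0.38 and passed (limma adjusted p = 0.0429), and it passed in none of the other fits that left out 1 tumour. COL1A2, the partner chain, changed by -0.11 ± 0.069 and was lower in 16 tumours, from a median of 13.7 to 13.6. COL3A1, the chain of the thinner fibrils of type III, changed by -0.14 ± 0.074 with 16 tumours lower (limma adjusted p = 0.294, n = 21). Its level ran from 12.9 to 14.2 before and from 12.9 to 14.3 after treatment.

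Type V collagen, which sets fibril width, showed no common direction among its chains. COL5A1 changed by 0.042 ± 0.091 and was higher in 14 of 21 tumours, although the sign of the change of COL5A1 turned without tumour 15 (-0.025) and in other settings. COL5A2 changed by -0.031 ± 0.090, with 11 tumours lower. COL5A3 varied more, with an SD of 0.63 over tumours around a mean of -0.19 ± 0.13. It changed by -1.54 in tumour 1 and by 0.72 in tumour 11. None of these chains passed the test. Without tumour 15 the mean change of COL5A2 was -0.080.

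COL2A1, the cartilage collagen, was at a low level in most tumours, with a median of 3.88 before treatment against a median probe set mean of 5.28. Tumour 4 was the exception at 6.42 before and 5.26 after treatment. The same tumour had the highest COL11A2, another cartilage chain, at 7.23 before treatment, with a change of -0.82. Of the 7 chondrocyte markers SOX9, the transcription factor of cartilage cells, was highest in tumour 4 before treatment, at 8.69, and the other markers peaked in other tumours. The mean over these markers was 5.78 in tumour 4 and 6.05 in tumour 13. Without tumour 15 the mean change of COL2A1 was -0.091 (-0.049 with it). COL24A1 had a mean change of -0.049 ± 0.092, and tumours 14 and 21, the highest before treatment at 5.59 and 5.44, changed by -1.18 and -1.01. Without tumour 14 its mean change was 0.0070.

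COL27A1 had the largest mean rise of all members, but a single tumour carried it. It ran from 4.64 to 6.29 before and from 4.61 to 10.8 after treatment. Tumour 15 rose by 4.54, from 6.29 to 10.8, and no other tumour changed by as much as 1. The mean change was 0.33 ± 0.20 over 21 tumours (limma adjusted p = 0.41) and 0.12 without tumour 15. The SD of its change, 1.03, was the highest among the members.

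**Figure D2:**
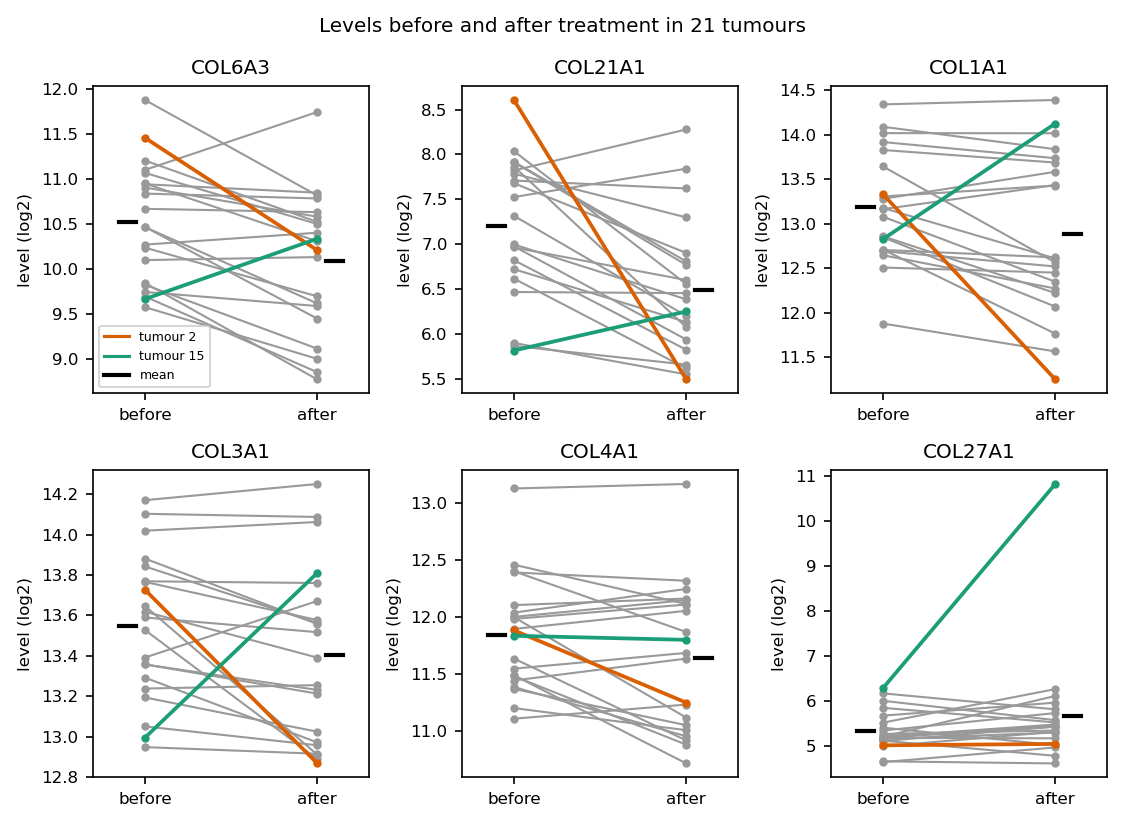
Levels of 6 collagen genes before and after treatment (y axis, log2), with 1 line per tumour, tumour 2 in orange, tumour 15 in green and the group means as black bars. Most lines of COL6A3 (17 of 21), COL21A1 (18 of 21) and COL1A1 (16 of 21) slope down. Tumours 2 and 15 are the extremes of change for COL1A1, and COL27A1 rises steeply in tumour 15.

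The basement membrane collagens had mean changes below 0 in all 7 members, between -0.22 and -0.0020, and none was called. The sign of 4 of them (COL4A3, COL4A4, COL4A6 and COL15A1) turned when 1 tumour was left out, so the shared direction rests on COL4A1, COL4A2 and COL4A5. COL4A1 and COL4A2, which together build the ubiquitous form of type IV collagen, lay close to each other in size of change. COL4A1 ran from 11.1 to 13.1 (median 11.9) before and from 10.7 to 13.2 (median 11.7) after treatment. Its change was -0.21 ± 0.076 (SE, n = 21, limma adjusted p = 0.115), with 12 of 21 tumours lower. COL4A2 ran from 11.2 to 13.03 before and from 10.6 to 13.1 after treatment, and changed by -0.22 ± 0.088 (limma adjusted p = 0.139), also with 12 tumours lower. For both genes the largest fall exceeded the largest rise. COL4A1 fell by as much as 0.88 in tumour 12 and rose by at most 0.21, in tumour 6, and COL4A2 fell by up to 0.93 and rose by at most 0.45, in tumour 9.

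The tissue-restricted type IV chains were at low levels and moved little. COL4A3 (-0.0020 ± 0.053), COL4A4 (-0.017 ± 0.064) and COL4A6 (-0.0074 ± 0.050) lay near 0, and COL4A5 (-0.12 ± 0.060) was lower in 14 of 21 tumours. Without tumour 15 the values were -0.024 for COL4A3, 0.0046 for COL4A6 and -0.075 for COL4A5. In unspiked tumours COL4A3 and COL4A4 were at 0.045 and 0.062. These chains are known from kidney, lung, testis and smooth muscle. Their levels before treatment reached at most 6.27 in any tumour.

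COL15A1, a collagen that links the basement membrane to the underlying matrix, had the widest spread of levels between tumours among the members. It ran from 5.53 in tumour 18 to 10.5 in tumour 17 before treatment, an SD of 1.39. Its mean change was -0.032 ± 0.16, with 11 tumours lower and 10 higher. The changes went from -1.89 in tumour 6 to 1.65 in tumour 3. The near-zero mean thus covers large shifts in single tumours, and its sign turned in several of the settings tried. Without tumour 15 it was -0.064.

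Type VI collagen, which forms beaded microfilaments around cells, held one of the called genes. COL6A3, its largest chain, ran from 9.58 to 11.9 (median 10.5) before and from 8.78 to 11.7 (median 10.3) after treatment. Its level fell in 17 of 21 tumours and rose in tumours 3, 5, 13 and 15, by 0.034, 0.13, 0.64 and 0.67. The groups overlapped, and the SD between tumours before treatment was 0.66. The paired change was -0.43 ± 0.11 (SE, n = 21, limma adjusted p = 0.0203, 95% interval -0.65 to -0.20), or 0.743 times the level before. Without tumour 15 it was -0.48. It passed in all 21 fits that left out 1 tumour, with adjusted p from 0.00517 to 0.0398. COL6A3 was lower in 9 of 9 spiked tumours (-0.53, limma adjusted p = 0.0291) and in 8 of 12 unspiked tumours (-0.35, limma adjusted p = 0.416). In the spiked batch alone 1.81% of named genes were called lower, and in the unspiked batch 0% were called in either direction (3.3% in the spiked). The difference between the batches did not pass (limma unadjusted p = 0.431). With the 3′ to 5′ contrast as a term in the fit the change was -0.33 (limma adjusted p = 0.0396). Both COL6A3 and COL21A1 were called without the 4 tumours in which that contrast moved most, where 3.15% of named genes were called and 1.63% were lower. Without the tumour as a block COL6A3 was not called (limma adjusted p = 0.935), and with the tumour as a random block it narrowly missed (limma adjusted p = 0.0506).

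COL6A1, the partner chain of COL6A3, changed by -0.23 ± 0.099 and was lower in 13 of 21 tumours (limma adjusted p = 0.189, n = 21). It ran from 10.01 to 12.3 before and from 9.80 to 12.4 after treatment. COL6A6, a chain that can replace COL6A3 in some tissues, was at a median of only 3.47 before treatment and changed by -0.058 ± 0.051.

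Collagens that sit on the surface of fibrils, called FACIT collagens, held the other called gene, 1 of 8 measured members. COL21A1, a minor member of this family found in vessel walls and other tissues, had the largest mean change of all 36 genes. It ran from 5.81 to 8.61 (median 7.31) before and from 5.49 to 8.28 (median 6.38) after treatment. It was lower in 18 of 21 tumours and higher in tumours 4, 8 and 15, by 0.46, 0.32 and 0.44. The mean change was -0.72 ± 0.16 (SE, n = 21, limma adjusted p = 0.0109, 95% interval -1.06 to -0.38), or 0.608 times the level before. Tumour 2 fell by 3.12, from 8.61, the highest level before treatment, to 5.49, the lowest after. Without tumour 15 it was -0.78. The call held in all 21 fits that left out 1 tumour, tumour 2 included, with adjusted p from 0.00514 to 0.0227. It was -0.68 in the spiked batch (8 of 9 tumours lower, limma adjusted p = 0.056) and -0.75 over unspiked tumours (10 of 12 lower, limma adjusted p = 0.261), and passed in neither alone. The difference between the batches did not pass (limma unadjusted p = 0.841). For this difference 1 member had an unadjusted limma p under 0.05 (COL23A1) and 0 an adjusted one, beside 7.1% and 0.00233% of all probe sets. COL21A1 has 1 probe set here, so no second one can be set beside it.

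Among the other FACIT collagens COL16A1 changed by -0.22 ± 0.097 with 13 tumours lower (limma adjusted p = 0.189), and COL14A1, a collagen of dense connective tissue, by -0.12 ± 0.099 with 11 lower. COL14A1 was at 10.7 in tumour 13 before treatment against a median of 7.53, and it changed by -0.94 there. COL12A1, which binds type I fibrils and is known from tissues under tension, changed by 0.11 ± 0.12, with 12 tumours higher. Its largest changes were rises, of 1.72 in tumour 18, 1.12 in tumour 4 and 1.06 in tumour 16, from starting levels of 8.25, 8.12 and 8.27. Only tumour 19 started lower, at 7.99, and it changed by 0.44. COL22A1 changed by 0.14 ± 0.062, the largest mean rise after COL27A1, with 12 tumours higher (limma adjusted p = 0.208, n = 21). COL9A1 (-0.022 ± 0.044), COL19A1 (-0.096 ± 0.052) and COL20A1 (0.038 ± 0.046) did not pass. COL9A1 was at -0.013 without tumour 15.

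Collagens of epithelial anchoring and of the cell membrane showed no shared direction. COL7A1, the anchoring fibril that ties the epidermis to the dermis, changed by 0.044 ± 0.12 with 11 of 21 tumours higher. It rose by 1.36 in tumour 4, where the mean of the keratinocyte markers changed by -0.21. Tumour 14 had the highest level before treatment, 7.91, and rose to 8.69, with a keratinocyte mean of 3.89 before treatment. In tumour 15 COL7A1 was at 7.86 before treatment and changed by -1.39. In tumour 15 the mean of the keratinocyte markers changed by -0.65. DSG3, a desmosome gene among them, fell most, from 9.01 to 6.66, while KRT10 rose from 12.1 to 12.6. The part of these markers in the change of COL7A1 was not tested. Without tumour 15 the mean change of COL7A1 was 0.12. COL17A1, the hemidesmosome collagen of basal keratinocytes, had its highest level before treatment, 5.32, in the same tumour. That is near the median probe set mean of 5.28, and tumour 13 was at 5.23 before and 5.39 after treatment. COL17A1 changed by -0.00036 ± 0.052 over all tumours and by 0.013 without tumour 15. COL10A1, a network collagen of growth plate cartilage that is also made in some tumour stroma, was higher in 15 of 21 tumours with a mean change of 0.10 ± 0.079 (limma adjusted p = 0.538). COL8A2 (-0.091 ± 0.058), COL13A1 (0.052 ± 0.042), COL23A1 (-0.0081 ± 0.052), COL25A1 (-0.032 ± 0.040) and COL26A1 (-0.069 ± 0.040) complete the members, and none passed. COL23A1 was at 0.0016 without tumour 15.

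Set side by side, the 3 classes did not separate by their medians. The median change was -0.050 for the fibrillar, -0.032 for the basement membrane and -0.032 for the other collagens, and no test was made between them. Without tumour 15 the median change of fibrillar collagen genes was -0.086, the median change of basement membrane collagen genes was -0.064 and the median change of other collagen genes was -0.038. Mean changes were below 0 in 8 of 10, 7 of 7 and 13 of 19 members. Both called genes belong to the other collagens, 2 of 19, and 0 of 10 fibrillar and 0 of 7 basement membrane genes were called. Abundant and weak transcripts are given apart, since a weak signal shows a change less well. Of the 11 members with a mean level above 9, 9 had a mean change below 0 and their median change was -0.21. Of all 1635 named genes above that level 42.7% were below 0, with a median change of 0.022. All 8 members at or below the median probe set mean changed by 0.117 or less in either direction. No response was detectable in these weakly expressed chains. In bulk samples fewer collagen-producing cells and less collagen RNA per cell cannot be told apart.

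Genes with several probe sets show how far a value depends on the probes. Of the 30 members with more than 1 probe set, 16 had changes of a single sign across all of them. Over all 97 collagen probe sets 5 fell and 0 rose, or 5.15% lower, against 2.99% of all probe sets called lower and 2.97% called higher (5.96% in either direction). Besides COL6A3 and COL21A1 these were single probe sets of COL1A1, COL1A2 and COL4A1. The 3 probe sets of COL1A1 changed by -0.21, -0.30 and -0.66, and the last was lower in 20 of 21 tumours (± 0.19, SE, n = 21, limma adjusted p = 0.0336). For COL1A2 the 4 probe sets changed by -0.082, -0.11, -0.44 and -0.52, and the last was lower in 18 tumours (limma adjusted p = 0.0366). The 3 probe sets of COL4A1 changed by -0.21, -0.25 and -0.32, and the last passed (limma adjusted p = 0.0443).

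For the type I chains the chosen probe set, with the highest mean, thus gave a smaller change than another probe set of the gene. The chosen ones lay near the top of the array's range, with means of 13.03 for COL1A1 and 13.62 for COL1A2 where the highest value of any probe set was 14.65. Whether signals so near the top were compressed was not tested. COL3A1 had probe sets of both signs, with changes of -0.27, -0.17, -0.14, 0.13 and 0.19, none called. The other 2 probe sets of COL6A3 changed by -0.37 and -0.16 and did not pass (limma adjusted p = 0.0984 and 0.148).

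**Figure D3:**
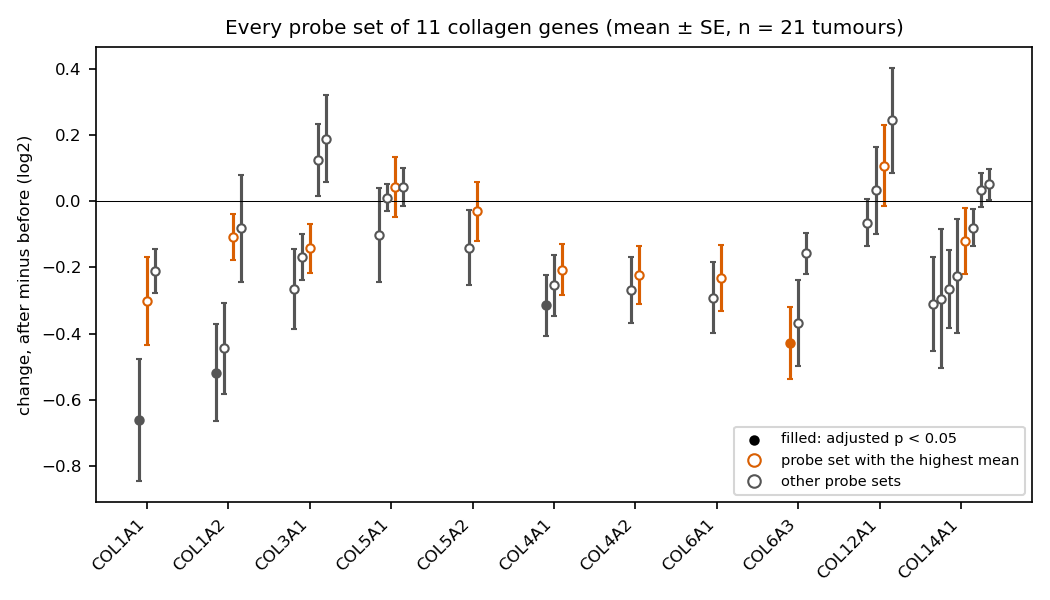
Change of every probe set of 11 collagen genes (y axis, log2, after minus before; mean ± SE over 21 tumours), with the probe set of the highest mean in orange and filled circles for a limma adjusted p under 0.05. The filled grey circles are single probe sets of COL1A1, COL1A2 and COL4A1, which lie below the orange ones of the same genes.

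Several chains of a shared molecule or fibril moved together across tumours. For 7 pairs of chains the levels before treatment and the changes were correlated, 14 relations in all, with permutation tests of 100000 resamples, two-sided, adjusted over the 14. The changes of COL4A1 and COL4A2 had the highest correlation, with r = 0.90 and rho = 0.88 over 21 tumours (permutation p = 1e-05 for each, the smallest the permutations can give, adjusted p = 4.67e-05 for r and 9.33e-05 for rho). Without the 2 tumours farthest from the median, r was 0.88, and within the batches it was 0.93 (spiked) and 0.87 (unspiked). These genes are neighbours in the RefSeq gene table, and they changed in the same direction in 19 of 21 tumours. The other neighbouring members did so less often. COL3A1 with COL5A2 and COL4A3 with COL4A4 shared direction in 14 tumours each, COL4A5 with COL4A6 in 11, and COL9A1 with COL19A1 in 10. These counts are not like for like, since COL4A3, COL4A5 and COL19A1 had mean levels of only 3.48, 4.64 and 4.80. COL4A1 and COL4A2 had mean levels of 11.7 each, and COL3A1 and COL5A2 of 13.5 and 11.7. COL1A1 and COL1A2 changed together with r = 0.83 and rho = 0.83 (permutation p = 4e-05 and 2e-05), and COL1A1 and COL3A1 with r = 0.86 and rho = 0.71 (permutation p = 1e-05 and 0.00035). Without tumours 2 and 15 these values of r were 0.76 and 0.66. COL6A1 and COL6A3 had r = 0.69 and rho = 0.70 (permutation p = 0.00039 and 0.00056).

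Across families the picture was mixed. The changes of COL1A1 and COL6A3 gave r = 0.71 and rho = 0.67 (permutation p = 0.00018 and 0.0011), and r = 0.53 without tumours 2 and 15. The changes of COL1A1 and COL4A1 gave r = 0.25 and rho = 0.11 (permutation p = 0.284 and 0.633), which did not pass. Whether that value differs from the others was not tested. COL5A1 and COL5A2 had r = 0.58 (permutation p = 0.00595) but rho = 0.39 (permutation p = 0.0792), and r = 0.17 without tumours 2 and 15, so this relation rests on those tumours. All pairs share arrays and RNA quality, and the pairs were chosen from known trimers and fibrils with earlier results of these data known.

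**Figure D4:**
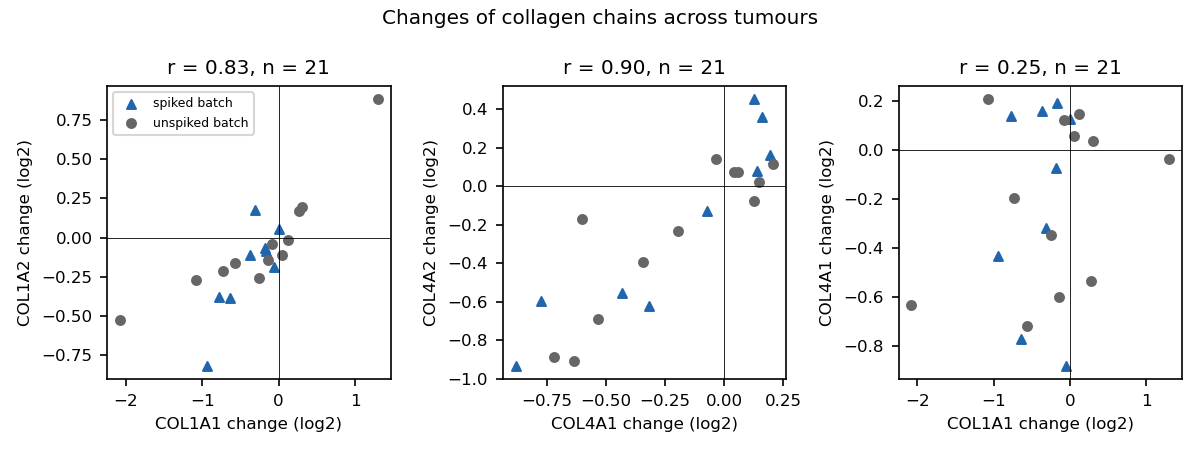
Change of one collagen chain against another in 21 tumours (both axes log2, after minus before), with triangles for the spiked and circles for the unspiked batch. COL1A1 with COL1A2 (r = 0.83) and COL4A1 with COL4A2 (r = 0.90) lie along a line, and COL1A1 with COL4A1 (r = 0.25) scatters.

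The levels before treatment were related as well. COL4A1 and COL4A2 had r = 0.87 and rho = 0.81 (permutation p = 1e-05 and 2e-05), and COL1A1 and COL3A1 had r = 0.81 and rho = 0.81 (permutation p = 2e-05 and 5e-05). COL1A1 and COL1A2 had r = 0.65 and rho = 0.61 (permutation p = 0.00114 and 0.00442), and r was 0.48 without tumours 13 and 18. Within the spiked and the unspiked batch r was 0.81 and 0.84. Tumour 13 had the highest level before treatment of COL1A1 (14.3), COL1A2 (14.2), COL3A1 (14.2), COL5A1 (11.2), COL5A2 (12.4), COL12A1 (11.5) and COL14A1 (10.7). Tumour 18 had the lowest COL1A1 (11.9), COL5A1 (8.78), COL6A1 (10.01) and COL15A1 (5.53). Tumour 17 had the highest COL4A1 (13.1), COL4A2 (13.03) and COL15A1 (10.5), so the single top tumour differed between these chains and the fibrillar ones. Over all 21 tumours the levels of COL1A1 and COL4A1 were positively related (r = 0.49 and rho = 0.58, permutation p = 0.0259 and 0.00687). Within neither batch did that relation pass.

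The tumours differed in how their collagens moved. In tumour 10, 30 of 36 members were lower after treatment, with a median change of -0.29, and in tumours 1 and 2 it was 28 and 27 members, also with medians of -0.29. Tumour 2 had 7 members lowered at least 2-fold and 0 raised, among them COL21A1 (-3.12), COL1A1 (-2.08), COL16A1 (-1.41), COL15A1 (-1.34), COL6A3 (-1.25), COL5A3 (-1.17) and COL6A1 (-1.04). In tumour 2 4.16% of all named genes changed at least 2-fold. At the other end, 11 members were lower in tumour 15, with a median change of 0.18. All fibrillar collagens but COL24A1 (-0.28) were higher there, with a median of 0.85 against -0.63 in tumour 2. COL1A1 rose from 12.8 to 14.1 in tumour 15, COL5A1 by 1.38, COL5A2 by 0.96, COL1A2 by 0.88 and COL3A1 by 0.81. The mean level of 8 fibroblast markers changed by -0.012 in tumour 15 and by -0.45 in tumour 2. In tumour 10 it changed by -1.36, the largest fall in any tumour, and in tumour 1 by 0.042. The endothelial and the smooth muscle and pericyte means changed by -0.84 and -0.58 in tumour 10. In tumour 2 KRT10 changed by 3.87 and DSP, a desmosome protein, by 0.68, which carried most of a change of 0.92 in the keratinocyte mean. The endothelial mean changed by 0.47 there. The markers' part in these shifts was not tested.

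Tumours 9 and 13 illustrate patterns between these ends. In tumour 13 COL5A1, COL5A2 and COL6A3 were higher by 0.64, 0.57 and 0.64 while COL14A1 was lower by a change of -0.94. In tumour 9 COL14A1 changed by -1.21 and COL4A2 by 0.45. The per-tumour median of the fibrillar members was below 0 in 15 of 21 tumours, that of the basement membrane members in 11 and that of the other members in 10. In all, 5 members were lower in at least 15 tumours, where 9.73% of all named genes were lower and 11.7% higher in that many. These were COL1A1, COL1A2, COL3A1, COL6A3 and COL21A1. COL10A1 was the only member higher in at least 15.

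**Figure D5:**
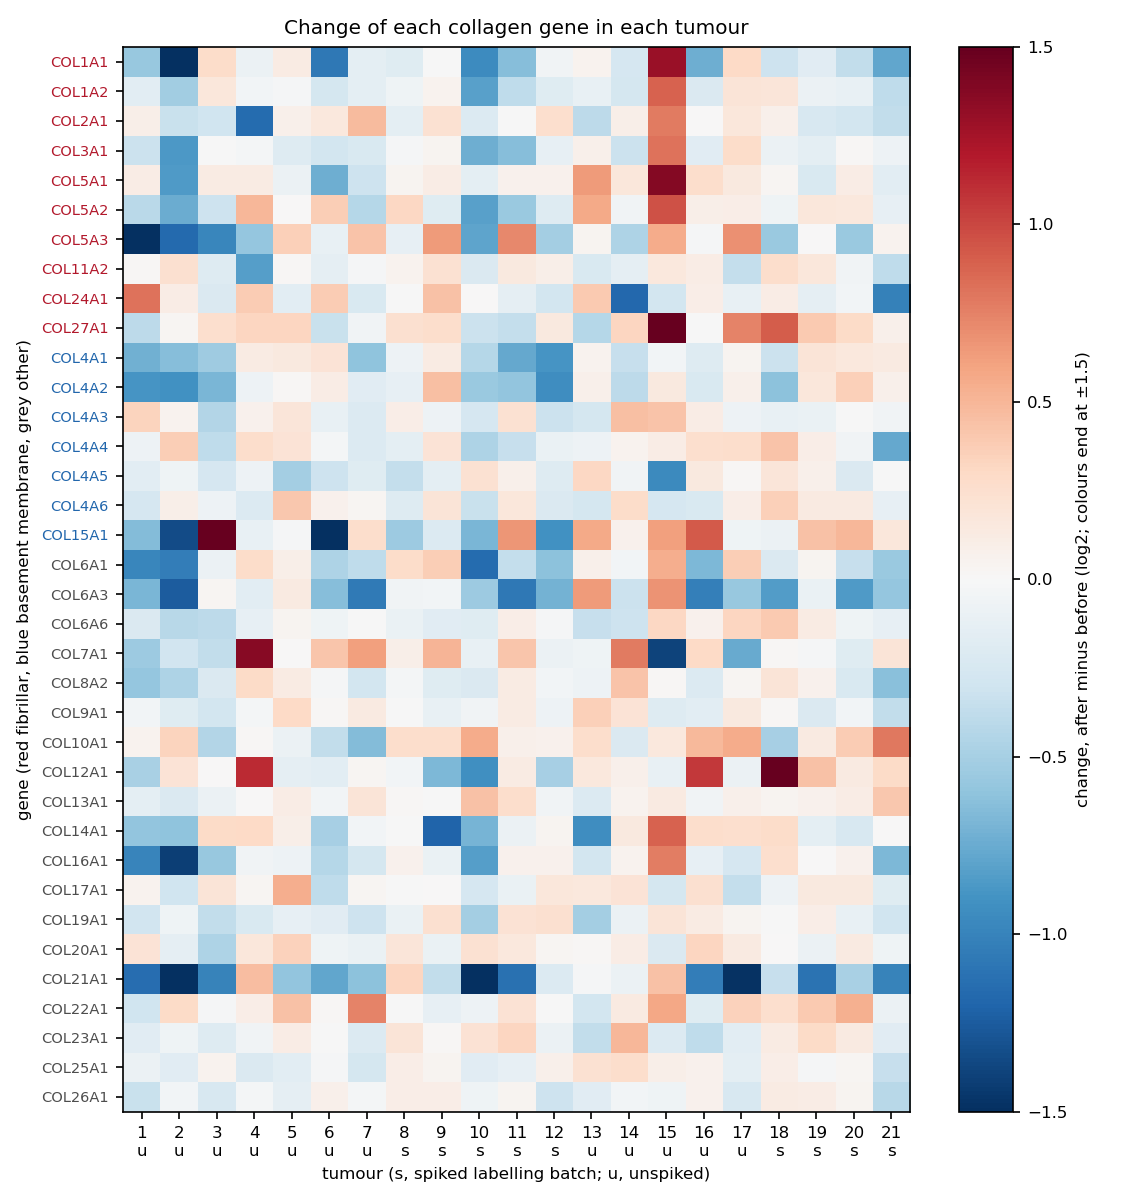
Change of each collagen gene (rows, coloured by class) in each tumour (columns, with s or u for the spiked or unspiked batch), on a log2 scale that ends at ±1.5. Columns 1, 2 and 10 are mostly blue, column 15 is red for most fibrillar rows, and the row of COL21A1 is blue in 18 of 21 tumours.

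Genes that act on collagen showed few changes beside these. Their counts are to be read against the 3.13% of all named genes called lower and 4.02% called higher. Of 13 folding and modification genes measured, 1 rose and 1 fell. PPIB, an isomerase that helps the triple helix fold, rose by 0.26 ± 0.076 (limma adjusted p = 0.0444, 18 of 21 tumours higher). P3H2, which hydroxylates prolines and is known for acting on type IV collagen, fell, with a mean change of -0.34 ± 0.098 (limma adjusted p = 0.0402, 17 of 21 tumours lower). Both calls were at the edge, since dropping a single tumour ended each in 13 of 21 cases (adjusted p up to 0.084 for PPIB and 0.0762 for P3H2). With the 3′ to 5′ contrast in the fit neither passed (limma adjusted p = 0.0632 and 0.0571), nor without the 4 tumours of changed contrast (limma adjusted p = 0.103 and 0.0804). SERPINH1, the collagen chaperone, changed by -0.12 ± 0.21. It rose by 2.65 in tumour 15, and without that tumour its mean change was -0.26. Of 12 processing and crosslinking genes 1 rose and 0 fell. The riser was PCOLCE2, an enhancer of procollagen cleavage, with 0.57 ± 0.11 (limma adjusted p = 0.00428, 19 of 21 tumours higher). TLL1, a procollagen protease, came next by p (-0.29 ± 0.13, limma adjusted p = 0.2). LOX, a crosslinking oxidase, changed by 0.017 ± 0.17 over all tumours, but by -0.51 in spiked and 0.42 in unspiked ones. That difference between the batches did not pass after adjustment (limma unadjusted p = 0.00502, adjusted p = 0.624). None of 9 collagen receptor genes passed in the limma fit over all tumours, nor did any at an unadjusted p under 0.05. ITGB1 (-0.17 ± 0.094) and ITGA2 (0.26 ± 0.18) had the smallest p. ITGB1 changed by -0.47 in spiked tumours (limma adjusted p = 0.049, where 1.81% of named genes were called lower) and by 0.047 in unspiked ones. For ITGB1 too the difference between the batches did not pass after adjustment (limma unadjusted p = 0.00397, adjusted p = 0.615).

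Among 7 collagen-degrading enzymes 1 rose and 0 fell. It was the collagenase MMP1, with 2.48 ± 0.57 (limma adjusted p = 0.0117, 19 of 21 tumours higher). In tumour 15 MMP1 changed by -6.84, and without that tumour its mean change was 2.95. The membrane protease MMP14 (-0.47 ± 0.16, limma adjusted p = 0.0843) and the gelatinase MMP2 (-0.27 ± 0.094, limma adjusted p = 0.0933) did not pass. Of 14 basement membrane partners, which share the sheet with type IV collagen, 2 fell and 0 rose. NID1, the nidogen that bridges laminin and type IV collagen, fell in 17 of 21 tumours with a mean change of -0.65 ± 0.17 (limma adjusted p = 0.0217). SPARC, a collagen-binding matricellular protein, fell in 16 tumours, with -0.28 ± 0.083 (limma adjusted p = 0.0476). The call on SPARC ended in 14 of 21 cases when a single tumour was dropped, and with the 3′ to 5′ contrast in the fit (limma adjusted p = 0.115). Without the 4 tumours of changed contrast neither SPARC nor NID1 passed (limma adjusted p = 0.168 and 0.0857). The partners' median change was -0.12, and 12 of the 14 had a mean change below 0, where 46.9% of all named genes did.

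Of 8 markers of fibroblasts, the main collagen-making cells, 0 passed and 5 had a mean change below 0. Their median change was -0.21, and the mean change of the list was -0.11. PDGFRA (-0.26 ± 0.087, limma adjusted p = 0.0787) and FAP (-0.33 ± 0.12, limma adjusted p = 0.0989) came closest. Those with a mean change above 0 were LUM (0.39 ± 0.37), PDGFRB (0.084 ± 0.070) and DCN, the collagen-binding proteoglycan decorin (0.026 ± 0.059). The mean level over these markers ran from 9.86 to 11.4 before and from 9.84 to 11.3 after treatment and was lower in 9 of 21 tumours. The mean over 7 endothelial markers ran from 6.09 to 8.68 before and from 5.95 to 8.28 after treatment, with 0 called. The 6 smooth muscle and pericyte markers, the 7 chondrocyte markers and the 5 osteoblast markers had 0 called as well, and of the last 2 lists 6 of 7 and 4 of 5 genes lay at or below the median probe set mean. Among 5 leukocyte markers 1 fell, the T cell gene CD3E (-0.23 ± 0.067, limma adjusted p = 0.042, 16 of 21 tumours lower), and that call ended in 13 of 21 cases when a single tumour was dropped. CD14, a monocyte marker, changed by 0.29 ± 0.095 (limma adjusted p = 0.0739). The mean over the leukocyte markers ran from 5.77 to 7.65 before and from 5.86 to 7.33 after treatment. The part of these cells in the collagen changes was not tested.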

How the data were processed

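The authors deposited log2 levels made by RMA in Affymetrix Expression Console, per the submitters' processing notes. No version is given in the sources used here. RMA corrects background, normalises between arrays and sums probes, so values near the array's limits may be compressed. Of 43035 probe sets, 111 controls were left out. Symbols came from the platform annotation (29254 probe sets with 1 symbol, 439 with several, 13231 with none). RefSeq (UU_Cfam_GSD_1.0) matched 34 of the 36 members by gene identifier, and all 34 kept their symbol. No sequences were used here.

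Pairs of arrays share a tumour code in their titles. The array after treatment correlated best with its own tumour's array before treatment in 21 of 21 tumours (0.44 to 0.90). Whether every tumour is from its own dog is not stated, and p-values reflect only how much these tumours vary. limma 3.58.1 (R 4.3.3) was fitted with the tumour as a block, eBayes and Benjamini-Hochberg adjustment over 42924 probe sets, two-sided, at 0.05. On simulated data it recovered 48%, 94%, 98% and 100% of 50 probe sets each lowered by 0.25, 0.5, 1 and 2 on the log2 scale (13 false calls). The probe sets were drawn at random from all tested ones, each with independent normal noise of its own SD. Among the members the SD of change ran from 0.16 (COL25A1) to 1.03 (COL27A1). The recovered shares are therefore not rates for the collagen genes. Relations were computed with SciPy 1.17.1, tables with pandas 2.3.3 and NumPy 2.4.6, and plots with Matplotlib 3.10.9 (Python 3.11.15). Batches were split at the largest gap between tumours in the poly-A controls.

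The collagen members and all lists were chosen with earlier results of these data known. Named genes are those called, a fixed set of main chains, the 3 largest mean rises and falls, the 5 most variable, and the 2 of each related list with the smallest p. Other members are named to account for all of them. Other related genes, markers and single tumours were picked once their values were known. Alternatives changed normalisation, filter, block, shrinkage, batch and probe set choice, and left out tumours.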

Additional observations from a re-analysis of the deposited data

How the results depend on the processing

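The calls on COL6A3 and COL21A1 held together under renewed quantile normalisation, centring, array weights, trend and robust shrinkage, a level filter, the 3′ to 5′ covariate, adjustment over 1 probe set per gene, the 31 genes with probe sets other than _s_at and _x_at, and without the 4 tumours of changed 3′ to 5′ contrast (an alternative added after seeing the data). The count of collagen genes called lower, 2 in the paired fit, was 0 with no replicate block, 1 with a random block, 1 in spiked and 0 in unspiked tumours alone, and 4 without tumours 13 and 15 (COL1A1 and COL3A1 in addition). It was 2 to 3 when 1 tumour was left out, and 3 with the mean of all probe sets or with the most variable probe set of a gene. The latter called COL1A1, COL4A1 and COL21A1 but not COL6A3. The count called higher was 0 in every setting. The count of all probe sets called was 2558 in the paired fit, 30 with no replicate block, 1293 in spiked and 0 in unspiked tumours alone, 3861 without tumours 13 and 15, and 1177 without the 4 tumours. The class medians moved by less than the SD between tumours in every setting run. That is a wide bound, because these SDs (0.29 fibrillar, 0.18 basement membrane and 0.12 other) are larger than the medians themselves. The fibrillar median, for example, was -0.050 in all tumours and -0.12 in spiked ones.

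Signs of members near 0 turned, with none called. When 1 tumour was left out the sign turned for 11 members, those below and COL4A3, COL4A4, COL4A6, COL23A1 and COL24A1. The change of COL2A1 was 0.00094 without the 4 tumours and -0.091 to 0.0059 when 1 tumour was left out. The change of COL5A1 was -0.00080 with array weights, -0.012 in spiked tumours, -0.060 without tumours 13 and 15, -0.0017 with the mean of probe sets, -0.10 with the most variable one, and -0.025 to 0.087 when 1 tumour was left out. The change of COL5A2 was 0.019 with the covariate, 0.054 in unspiked tumours, and -0.080 to 0.0080 when 1 was left out. The change of COL15A1 was 0.0046 with the mean of probe sets, 0.019 without _s_at and _x_at probe sets, and -0.12 to 0.061 when 1 was left out. The change of COL7A1 was -0.025 with the mean of probe sets, and -0.022 to 0.12 when 1 was left out. The change of COL17A1 was 0.018 with array weights, 0.00025 when centred, 0.017 with the covariate, 0.013 in unspiked tumours, 0.0047 without tumours 13 and 15, 0.051 with the mean of probe sets, 0.10 without _s_at and _x_at, and -0.028 to 0.019 when 1 was left out.

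Among the relations, those of levels before treatment fell short within batches for COL5A1 with COL5A2 (spiked r = 0.53), COL6A1 with COL6A3 (0.47 and 0.34, and 0.43 after quantile normalisation), COL1A1 with COL4A1 (0.69 and 0.34, and 0.44 without the 2 farthest tumours) and COL1A1 with COL6A3 (spiked 0.59). Those of changes fell short for COL5A1 with COL5A2 (spiked 0.11, and 0.17 without 2 tumours), COL6A1 with COL6A3 (spiked 0.58) and COL1A1 with COL6A3 (spiked 0.45). The batches hold 9 and 12 tumours. The cause was not tested for any of these.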
